A study of Mus musculus with 62 samples.

Results

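Ccl2, Ccl3, Ccl4, Ccl6, Ccl7, Ccl9, Ccl12 and Ccl24 are genes of CC chemokines. They were taken by symbol from the 53801 genes of the count matrix, and all 8 were found. Each had counts in all 61 libraries of usable depth, and all 8 passed the filter on low counts, as did 19865 genes in all. The 62 RNA-seq libraries were made from CD11b+ cells, which the series title calls microglia. WT mice were wild type, NLRP3 mice were Nlrp3-/- (as the series title has it), APPPS1 mice carried the APP/PS1 transgenes, which model amyloid deposition, and APPPS1_NLRP3 mice had both changes. Mice of each genotype were 4, 6 or 12 months old, and a further set at 12 months carries the tag Mxo4 in its titles, which the labels do not spell out. The 16 groups held 3 to 5 libraries each. The strain, the promoter of the transgenes, and whether a library came from 1 mouse or several are not given in the sources used here, so each p-value reflects the spread between libraries, which may be technical.

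CC chemokines are small secreted proteins with adjacent cysteines near the N terminus that draw leukocytes along a gradient by binding G protein-coupled receptors of the Ccr family. Ccl3 and Ccl4 are the macrophage inflammatory proteins, and Ccl3 signals through Ccr1. Microglia are known to raise them in disease and within hours of handling. Ccl2, Ccl7 and Ccl12 act on Ccr2 and call monocytes from the blood. Ccl6 and Ccl9 are mouse chemokines that bind Ccr1, and Ccl6 is known as a gene of disease-associated microglia near amyloid plaques. Ccl24, or eotaxin-2, binds Ccr3 and is known from eosinophil recruitment and from tissue macrophages.

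Of the 8 genes, 7 lie on chromosome 11 in 2 blocks, by GENCODE vM21 on GRCm38 (equal to mm10, the authors' build). The first block holds Ccl2 (chr11:82035571-82037453, + strand), Ccl7 (chr11:82045712-82047525, + strand) and Ccl12 (chr11:82101845-82103400, + strand). The second holds Ccl9 (chr11:83572919-83578636, − strand), Ccl6 (chr11:83587882-83593087, − strand), Ccl3 (chr11:83647844-83649355, − strand) and Ccl4 (chr11:83662584-83664683, + strand). Ccl24 lies at chr5:135569937-135573049 (− strand). Ccl6 and Ccl9 are 9.245 kb apart, and Ccl3 and Ccl4 are 13.23 kb apart. Nlrp3 itself is on chromosome 11, 22.47 to 24.1 Mb away from these 7 genes. Ccl2 overlaps Gm17268 (6 counts in all libraries), and Ccl6 overlaps E230016K23Rik on the opposite strand (323 counts against 398068 for Ccl6). Libraries of this kit do not keep the strand, so reads of overlapping genes cannot be told apart.

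The 250 bases before the transcription start are shown for the 4 members matched in the RefSeq promoter table (GRCm38.p6), because neighbours in them behaved differently: Ccl6 and Ccl3 rose with the transgenes while Ccl9, beside Ccl6, was not called. Ccl2, Ccl4, Ccl7 and Ccl24 were not matched. The windows are chr11:82101595-82101844 (+) for Ccl12, chr11:83578637-83578886 (−) for Ccl9, chr11:83593088-83593337 (−) for Ccl6 and chr11:83649379-83649628 (−) for Ccl3, each written 5′ to 3′ along the gene. Capitals mark matches, on either strand, to the TATA box as TATAAA. They also mark the AP-1 motif, searched by the letters TGANTCA. The kappaB motif, searched as GGGNNNNNCC, is in capitals too.
Ccl12: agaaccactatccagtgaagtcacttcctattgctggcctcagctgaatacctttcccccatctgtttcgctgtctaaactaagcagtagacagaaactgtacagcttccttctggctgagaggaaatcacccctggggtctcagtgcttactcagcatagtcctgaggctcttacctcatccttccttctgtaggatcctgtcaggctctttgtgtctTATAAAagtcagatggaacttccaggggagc
Ccl9: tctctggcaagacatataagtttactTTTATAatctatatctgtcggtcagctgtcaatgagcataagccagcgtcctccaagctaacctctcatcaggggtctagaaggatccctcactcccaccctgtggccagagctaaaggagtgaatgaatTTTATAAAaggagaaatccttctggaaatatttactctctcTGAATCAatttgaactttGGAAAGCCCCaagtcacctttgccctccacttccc
Ccl6: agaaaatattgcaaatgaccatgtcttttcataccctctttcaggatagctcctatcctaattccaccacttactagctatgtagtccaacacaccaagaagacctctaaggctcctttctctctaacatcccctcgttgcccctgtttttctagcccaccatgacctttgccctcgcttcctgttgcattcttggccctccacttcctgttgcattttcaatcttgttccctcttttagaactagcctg
Ccl3: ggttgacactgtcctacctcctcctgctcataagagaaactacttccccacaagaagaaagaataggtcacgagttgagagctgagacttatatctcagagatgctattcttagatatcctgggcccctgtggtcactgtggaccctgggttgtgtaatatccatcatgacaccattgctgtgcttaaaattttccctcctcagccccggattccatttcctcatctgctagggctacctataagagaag

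Counting back from the start, Ccl12 holds TATAAA at -31 to -26. Ccl9 holds TGANTCA at -53 to -47 and GGGNNNNNCC on the other strand at -35 to -26. It also holds TATAAA on both strands in overlap at -94 to -87, and on the other strand at -224 to -219. Of the 32851 promoter windows of the table, 12.4% hold TATAAA, 6.75% TGANTCA and 45.8% GGGNNNNNCC. PU.1 (GAGGAAG, 10.6%) and C/EBP (TTGCNNAA, 9.56%) motifs were searched too and matched none of the 4 windows. In Ccl6 and Ccl3 none of the 5 motifs was found by letters. A match is a description of the sequence, not a measured site. Set side by side without gaps, 20% to 28% of bases were identical between pairs of the 4 windows, and Ccl6 and Ccl9 had the lowest share. In alignments with gaps 43.7% to 49.2% of columns were identical.

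Nlrp3 counts fitted the labels, with group means of 80.4 to 184 CPM (library-size scaled counts, with TMM factors) in the 8 groups with intact Nlrp3 and 0.467 to 1.003 CPM in the 8 without it. Usable libraries held 1394435 to 27604393 counts. APPPS1_6m replicate 21 held 659 counts. It was kept in the fit and left out of all levels. NLRP3_12m replicate 45 (1394435 counts) and APPPS1_12m replicate 41 (6187249) were the next lowest, and all others held at least 11484943. The library labelled APPPS1_12m_Mxo4 replicate 56 had Cst7, a marker of disease-associated microglia, at 10.4 CPM. The remaining 3 APPPS1 libraries of that set held 1585 to 2304 CPM. Differences of the 8 genes called with replicate 56 are therefore also given without it. APPPS1_NLRP3 minus APPPS1 and the interaction in that set are given only with it. APPPS1_12m replicate 38 had the highest sums of neutrophil and monocyte markers (2665 and 286 CPM, beside medians of 136 and 41.5 CPM over libraries). Xist and Y-linked counts gave 42 female and 19 male libraries. At 12 months untagged, all WT and APPPS1 libraries were female and all NLRP3 and APPPS1_NLRP3 libraries male, so sex and Nlrp3 loss cannot be told apart there. All 8 microglia markers were present in every library (sum 32105 to 47389 CPM), whereas T and NK cell and B cell markers summed to at most 9.11 and 1.81 CPM. In bulk libraries, fewer cells of a type and less RNA per cell cannot be told apart.

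Ccl4 and Ccl3 were the most abundant of the 8 per length, with medians over libraries of 1922 and 1369 CPM per kb of exon. Ccl12 followed at 174, Ccl6 at 115, Ccl2 at 87.5, Ccl7 at 52.95, Ccl9 at 35.8 and Ccl24 at 13.4 CPM per kb. Between groups, Ccl6 spread most widely. Its mean ran from 99.9 CPM in WT_4m to 1052 CPM in APPPS1_12m, a ratio of 10.5. Ccl4 and Ccl3 came next with ratios of 4.34 and 4.17 between NLRP3_6m and APPPS1_NLRP3_12m_Mxo4, the lowest and highest groups of both. The ratios were 3.89 for Ccl24, 3.50 for Ccl7, 2.47 for Ccl12, 1.86 for Ccl2 and 1.74 for Ccl9. When the 16 groups were ordered by mean, neighbours in the order overlapped in their libraries for 7 of the genes. Ccl6 was the exception at 2 steps, WT_6m below WT_12m and APPPS1_NLRP3_4m below APPPS1_6m. The second step parted, by mean, all groups without transgenes and both transgenic groups of 4 months from the 6 transgenic groups of 6 and 12 months. Of the latter, the order from the lowest was APPPS1_6m, APPPS1_12m_Mxo4, APPPS1_NLRP3_6m, APPPS1_NLRP3_12m_Mxo4, APPPS1_NLRP3_12m and APPPS1_12m, and each overlapped its neighbour. The place of APPPS1_12m_Mxo4, with a mean of 575 CPM, depends on the library labelled replicate 56. That library held 164 CPM of Ccl6, and the others of its group 615 to 889 CPM.

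Presence of the transgenes was tested with and without Nlrp3 with edgeR's quasi-likelihood test. A gene was called when its p, adjusted by Benjamini and Hochberg's method across 19865 genes, was under 0.05, and differences are log2 values ± SE. At 4 months no member was called in APPPS1 minus WT (background: 0.0252% of all genes called) or in APPPS1_NLRP3 minus NLRP3 (0.0101%), with 2 of 16 tests at an unadjusted p under 0.05 and 0 called by DESeq2. At 6 months 1 of 8 was called in APPPS1 minus WT (3.03% of all genes) and 4 of 8 in APPPS1_NLRP3 minus NLRP3 (8.03%), all higher. At 12 months the counts were 4 of 8 higher in APPPS1 (18.1%) and 1 of 8 higher in APPPS1_NLRP3 (8.69%). In the Mxo4 set 3 were higher and 1 lower in APPPS1 (5.07%), and 1 was higher in APPPS1_NLRP3 (5.14%). Over the 8 members the median difference was 0.96 in APPPS1_NLRP3 minus NLRP3 at 6 months and 0.83 in APPPS1 minus WT at 12 months, beside medians over all genes of -0.04 and -0.07. In the remaining transgene comparisons the member median was nearer 0. For APPPS1 minus WT it was -0.03 at 4 months, 0.02 at 6 months and -0.20 in the Mxo4 set. For APPPS1_NLRP3 minus NLRP3 it was -0.09 at 4 months, 0.12 at 12 months and -0.04 in the Mxo4 set. The comparisons of Nlrp3 loss that follow use the same libraries.

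**Figure D1:**
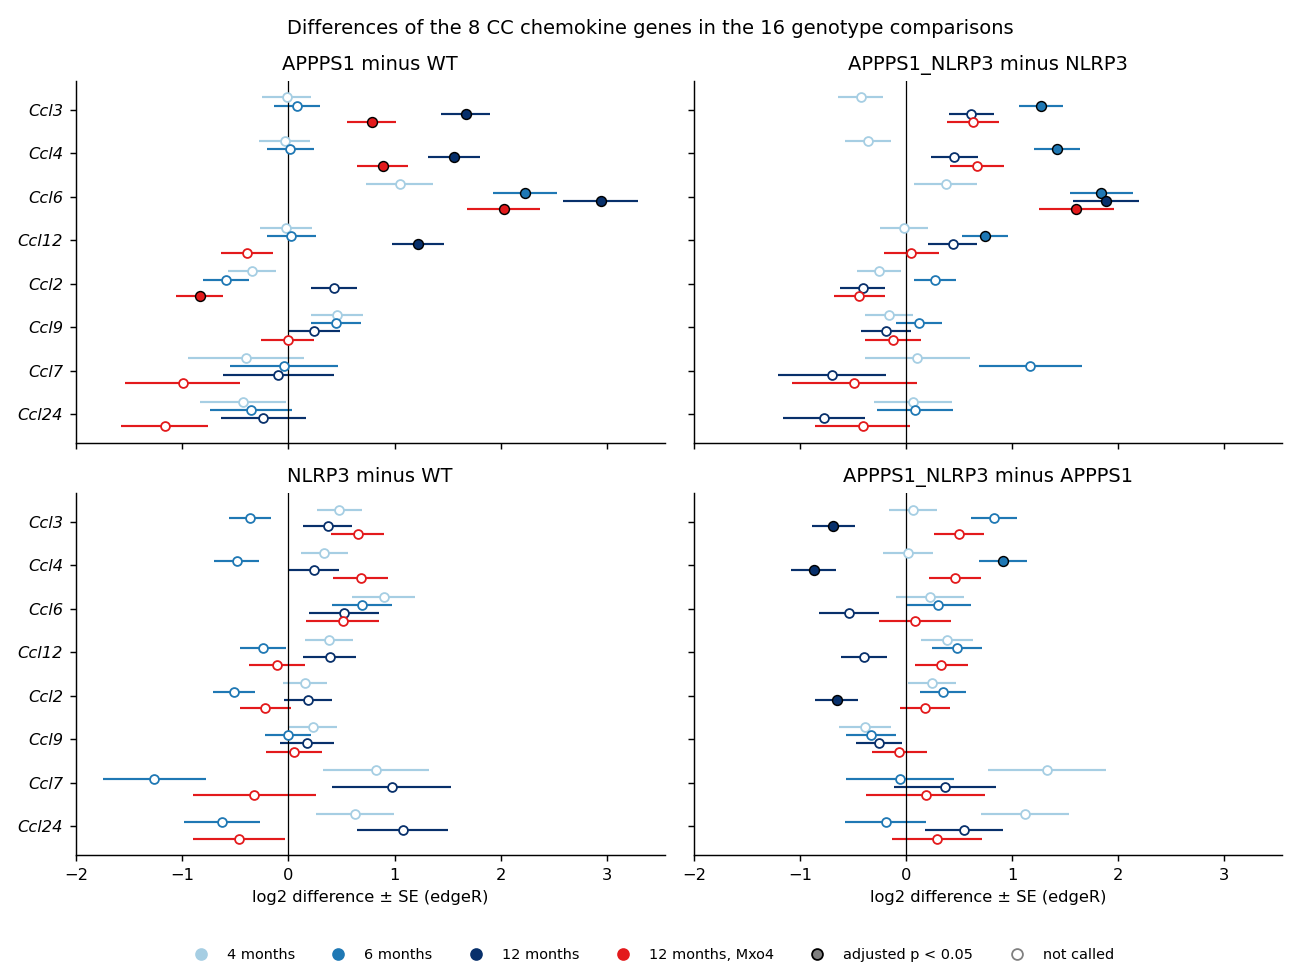
Log2 differences (x axis, ± SE, edgeR) of the 8 genes in the 16 comparisons of genotype, 1 panel per pair of genotypes and 1 colour per set. Filled points passed an adjusted p of 0.05: Ccl6 is filled in both transgene panels at 6 and 12 months and in the Mxo4 set, and no point is filled in NLRP3 minus WT.

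Loss of Nlrp3 without transgenes called no member in any of the 4 sets (edgeR; background at 4, 6 and 12 months and in the Mxo4 set: 0.378%, 0.443%, 1.47% and 0.0956% of all genes). Of these 32 tests, 9 had an unadjusted p under 0.05, and DESeq2 called 0. In APPPS1_NLRP3 minus APPPS1, no member was called at 4 months (0.206%) or in the Mxo4 set (0.287%), with 3 of 16 tests under 0.05 unadjusted and 0 called by DESeq2. At 6 months Ccl4 was higher without Nlrp3 (0.488% of all genes called), and at 12 months Ccl2, Ccl3 and Ccl4 were lower without it (5.71%). The interaction, that is the transgene difference in Nlrp3-/- mice less that in mice with Nlrp3, called no member in any set. Its background was 0% of all genes at 4 months, 0.0151% at 6 months, 0% at 12 months and 0% in the Mxo4 set. Of these 32 tests, 9 were under 0.05 unadjusted, and DESeq2 called 3: Ccl4 at 6 months, and Ccl3 and Ccl4 at 12 months. Over all genes, 354, 1961 and 802 had an unadjusted p under 0.05 in the 3 sets where edgeR called 0, and DESeq2 called 1, 92 and 1 of them.

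Ccl3 and Ccl4 were called higher with the transgenes at 6 months in mice without Nlrp3, and at 12 months in mice with it. At 6 months Ccl3 lay at 782, 813, 873, 975 and 1006 CPM in the 5 WT libraries and at 872, 923 and 1111 CPM in the 3 APPPS1 libraries, which overlap. It lay at 553, 687, 697 and 814 CPM in the 4 NLRP3 libraries and at 1297, 1356, 1492, 1935 and 2247 CPM in the 5 APPPS1_NLRP3 libraries. These last 5 lay above every other 6-month library. The difference was 0.08 ± 0.21 in APPPS1 minus WT (adjusted p = 0.9, edgeR) and 1.27 ± 0.21 in APPPS1_NLRP3 minus NLRP3 (adjusted p = 1.97e-05). Ccl4 followed the same course, with 0.01 (adjusted p = 0.992) and 1.42 ± 0.22 (adjusted p = 6.94e-06). Ccl4 lay at 946, 984, 993, 1188 and 1268 CPM in WT, 1000.01, 1081 and 1362 CPM in APPPS1 and 641, 718, 842 and 846 CPM in NLRP3. In APPPS1_NLRP3 it lay at 1652, 1654, 1814, 2463 and 2648 CPM, again above every other library of that age. Within either value of the second number of the titles, the Ccl3 difference without Nlrp3 was 1.43 and 1.14, and that of Ccl4 1.51 and 1.35, all 4 called.

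At 12 months, untagged, the highest values were in APPPS1. Ccl3 lay at 659, 721 and 784 CPM in 3 WT libraries and 1509, 1565, 2487, 2503 and 3318 CPM in 5 APPPS1 libraries, with no overlap. The difference was 1.67 ± 0.23 (adjusted p = 4.97e-07, edgeR). Ccl4 went from 956, 1025 and 1083 CPM to 2056, 2205, 3215, 3606 and 3873 CPM, a difference of 1.56 ± 0.24 (adjusted p = 2.98e-06). All 5 APPPS1 libraries were above all 3 WT libraries for both genes. Second title number 1 holds a single WT library of this age, replicate 40, which the fit assumes to vary like the other groups, so values within number 1 have no spread of their own in WT. Within numbers 1 and 2 the Ccl3 difference was 1.37 and 2.02. That of Ccl4 was 1.29 (adjusted p = 0.0779) and 1.88 (adjusted p = 3.73e-07). Without Nlrp3, Ccl3 lay at 549, 949, 1061 and 1095 CPM in NLRP3 and 1229, 1284, 1297 and 1849.8 CPM in APPPS1_NLRP3. These did not overlap either, but the difference of 0.61 ± 0.21 was not called (adjusted p = 0.0618). Ccl4, at 709, 1252, 1367 and 1409 CPM and 1389, 1512, 1518 and 2127 CPM, overlapped and differed by 0.45 ± 0.22 (adjusted p = 0.223).

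In the Mxo4 set the transgene difference was called for both genes with Nlrp3. Ccl3 lay at 959.7, 1016 and 1424 CPM in WT and 1303, 1724, 2265 and 2465 CPM in APPPS1. Ccl4 lay at 1025, 1217 and 1517 CPM in WT and 1588, 1930.4, 2732 and 2972 CPM in APPPS1. The groups overlapped for Ccl3 through the library labelled replicate 56, the lowest of APPPS1, and did not overlap for Ccl4. The differences were 0.78 ± 0.23 (adjusted p = 0.0338, edgeR) and 0.89 ± 0.24 (adjusted p = 0.0192), and 0.96 and 1.05 without the library labelled replicate 56. Each call was lost without APPPS1_12m_Mxo4 replicate 58 or 59 or WT_12m_Mxo4 replicate 60 or 61 (highest adjusted p = 0.213 and 0.162). Without Nlrp3 the differences were 0.63 ± 0.25 and 0.67 ± 0.26 (adjusted p = 0.143 and 0.131).

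**Figure D2:**
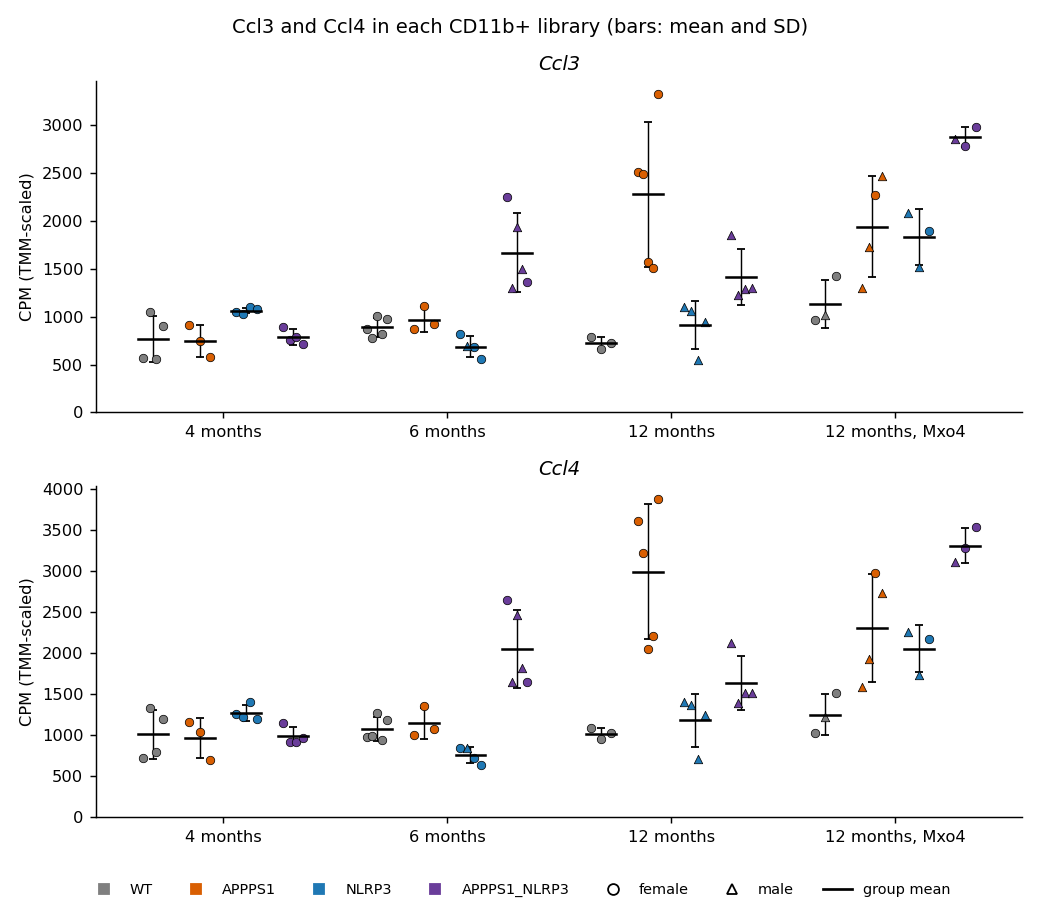
CPM of Ccl3 (top) and Ccl4 (bottom) in each of 61 libraries (points; circles female, triangles male) by genotype and set, with group mean and SD. APPPS1_NLRP3 stands above the other 6-month groups, and APPPS1 has the highest mean of the untagged 12-month groups.

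The direct comparison of the transgenic groups had opposite signs at 6 months and in the untagged set at 12 months. In the Mxo4 set, also of 12 months, neither Ccl3 nor Ccl4 was called, and every APPPS1_NLRP3 library lay above every APPPS1 library. Ccl3 lay at 2774 to 2983 CPM against 1303 to 2465 CPM, and Ccl4 at 3109 to 3535 CPM against 1588 to 2972 CPM. All 3 APPPS1_NLRP3 libraries there carry second title number 2, and in APPPS1 only the library labelled replicate 56 does. APPPS1_NLRP3 minus APPPS1 was 0.92 ± 0.23 for Ccl4 at 6 months (adjusted p = 0.0437) and 0.83 ± 0.22 for Ccl3 (adjusted p = 0.0706). The Ccl4 call at 6 months was lost without APPPS1_6m replicate 21, the library of 659 counts (edgeR adjusted p = 0.0682), with a difference of 0.85. It was also lost without each of 6 other single libraries, with RLE factors, without the filter on low counts and within second title number 2. Adding the first title number or sex to the fit ended it too. At 6 months the usable APPPS1 libraries were all female, and APPPS1_NLRP3 had 2 female and 3 male libraries. At 12 months, untagged, APPPS1_NLRP3 minus APPPS1 was -0.69 ± 0.20 for Ccl3 (adjusted p = 0.035, edgeR) and -0.87 ± 0.21 for Ccl4 (adjusted p = 0.012). The groups overlapped for Ccl3 and, by 1 library on each side, for Ccl4. In this set all APPPS1 libraries were female and all APPPS1_NLRP3 libraries male, so a sex term takes its estimate from other groups. It cannot separate sex from Nlrp3 loss here. With sex as a further term, the 12-month differences were -0.56 and -0.76, and neither was called (edgeR adjusted p = 0.27 and 0.106). Within second title number 1 they were -0.53 and -0.73, not called, and within number 2 -0.91 and -1.08, both called. Without APPPS1_12m replicate 41, they were -0.50 and -0.75, and neither was called (adjusted p = 0.163 and 0.0502). The Ccl4 call was also lost without APPPS1_NLRP3_12m replicate 44 (0.0639), and that of Ccl3 without APPPS1_12m replicate 35 or 36 or APPPS1_NLRP3_12m replicate 44, 46 or 49. The interaction within each age was 1.19 ± 0.30 for Ccl3 and 1.41 ± 0.31 for Ccl4 at 6 months (adjusted p = 0.167 and 0.0974, edgeR). At 12 months, untagged, it was -1.06 ± 0.31 and -1.11 ± 0.32 (adjusted p = 0.18 and 0.175). APPPS1_NLRP3 minus APPPS1 in the Mxo4 set less that in the untagged set, chosen after the values were seen, called 0 of 8 members (0.0151% of all genes). Of these 8 tests, 4 had an unadjusted p under 0.05, and DESeq2 called 2. The median difference over the members was 0.67.

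The change of sign between 6 months and 12 months, untagged, was tested itself, in comparisons chosen after the values were seen. The difference of Nlrp3 loss in APPPS1 at 12 months minus that at 6 months called 2 of 8 members (0.705% of all genes), Ccl3 at -1.52 ± 0.30 (adjusted p = 0.0122, edgeR) and Ccl4 at -1.79 ± 0.31 (adjusted p = 0.00783). Taken against the groups without transgenes, as the interaction at 12 months minus that at 6 months, the same 2 were called (0.277%), Ccl3 at -2.25 ± 0.43 (adjusted p = 0.0061) and Ccl4 at -2.52 ± 0.45 (adjusted p = 0.00251). With intact Nlrp3, the transgene difference at 12 months minus that at 6 months was 1.59 ± 0.31 for Ccl3 and 1.55 ± 0.33 for Ccl4 (adjusted p = 0.0379 and 0.0391, 2 of 8 called, 0.705% of all genes). Both of these calls were lost with the first title number in the fit (1.51 for each, adjusted p = 0.0911 and 0.106), without the filter on low counts (adjusted p = 0.0571 for each) and within second title number 1 (adjusted p = 1 for each), and that of Ccl4 also with the second title number left out (adjusted p = 0.0543). The first difference lost its call for Ccl3 without APPPS1_12m replicate 41 (adjusted p = 0.0516), and for both genes without APPPS1_6m replicate 22 (0.0501 for each). The last lost its call for Ccl3 without each of 5 single libraries and for Ccl4 without each of 8, among them APPPS1_12m replicate 41 (adjusted p = 0.0824 and 0.0868). The interaction difference kept its call for both genes in all 34 leave-outs. At 12 months, untagged, all libraries with Nlrp3 were female and all without it male, so an additive sex term cancels in that interaction. A fit with this term therefore cannot separate sex from Nlrp3 loss there. With sex as a further term the interaction difference was -2.25 and -2.48, both called. Within second title number 1, where WT at 12 months is replicate 40 alone and APPPS1 at 6 months has only replicate 22 of usable depth, it was -2.31 and -2.59 and neither was called (adjusted p = 0.812 for each). Within number 2 it was -2.46 and -2.73 (adjusted p = 0.0135 and 0.00325). Nlrp3 loss in APPPS1, 12 minus 6 months, was -1.71 and -2.05 within number 1, not called (adjusted p = 0.29 for each), and -1.51 and -1.74 within number 2, both called.

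The summed CPM of 12 genes known to respond to tissue dissociation, among them Fos, Jun, Egr1 and Atf3, ran over 14492 to 21056 in APPPS1_12m and 7922 to 11845 in APPPS1_NLRP3_12m, with no overlap. It ran over 20076 to 20106 in WT_12m, at the upper end of APPPS1_12m. At 6 months it ran over 14086 to 24128 in WT and 10038 to 11118 in APPPS1, with no overlap. It ran over 7827 to 21421 in APPPS1_NLRP3 and 12111 to 16945 in NLRP3 at that age. Over 61 libraries with each group's mean subtracted, log2 Ccl3 and Ccl4 correlated with the log2 sum at r = 0.44 and 0.53, a description over libraries that share depth and preparation. None of the 12 genes was at 0 in any library, and 3 of them were called lower in APPPS1_NLRP3 minus APPPS1 at 12 months (median difference -0.73). In the same comparison 2 of 6 monocyte markers were lower and 2 of 4 neuron markers higher. The part of these in the differences of Ccl3 and Ccl4 was not tested.

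The pair moved almost as one. The ratio of Ccl4 to Ccl3 counts was 1.23 ± 0.104 (SD, n = 61) and ran from 1.03 to 1.46. Over group means the log2 levels correlated at r = 0.99 (n = 16), and within groups at r = 0.96 (n = 61). Among 10054 other genes averaging 5 CPM or more, those most like Ccl3 over the 16 group means were Ccrl2 (0.97), H2-Q4 (0.96) and Plek (0.96). For Ccl4 they were Med11 (0.97), Osm (0.97) and Ccrl2 (0.97). Within groups, Ccrl2 (0.73), Rilpl2 (0.72) and Pqlc3 (0.71) were most like Ccl3, and Osm (0.74), Rilpl2 (0.71) and Mcl1 (0.71) most like Ccl4. Osm is the cytokine oncostatin M, and Mcl1 an inhibitor of apoptosis.

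Ccl6 was the member most widely changed, and it was called higher with the transgenes at 6 and 12 months both with and without Nlrp3. At 6 months Ccl6 lay at 98.6, 99.1, 103, 119 and 129 CPM in WT and 432, 581 and 584 CPM in APPPS1. It lay at 131, 156, 195 and 223 CPM in NLRP3 and 400.2, 535, 536, 725 and 979.5 CPM in APPPS1_NLRP3. Each transgenic library was above every library without transgenes. The differences were 2.23 ± 0.30 (adjusted p = 2.32e-06, edgeR) and 1.84 ± 0.30 (adjusted p = 2.13e-05). Within numbers 1 and 2 of the second title number they were 1.83 and 1.83 without Nlrp3, both called. With Nlrp3 they were 2.02 and 2.31, where number 1 holds 1 APPPS1 library of usable depth, replicate 22.

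At 12 months the separation was wider in APPPS1. WT libraries held 131, 133 and 146 CPM of Ccl6 and APPPS1 libraries 606, 671, 684, 1393 and 1905 CPM. NLRP3 libraries held 177, 184, 196 and 207 CPM and APPPS1_NLRP3 libraries 624, 685, 719 and 844 CPM. No transgenic library overlapped its control, and 2 of the 5 APPPS1 libraries, replicates 35 and 41, exceeded all others. The differences were 2.94 ± 0.35 (adjusted p = 4.85e-08, edgeR) and 1.88 ± 0.31 (adjusted p = 3.26e-05). In APPPS1 minus WT, Ccl6 differed by 2.16 within second title number 1 and by 3.65 within number 2, with WT replicate 40 alone in number 1. Without APPPS1_12m replicate 41 the difference was 2.60.

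In the Mxo4 set Ccl6 lay at 106, 123 and 199 CPM in WT and 164, 615, 633 and 889 CPM in APPPS1. The lowest APPPS1 value was the library labelled replicate 56, and the other 3 lay above all WT libraries. The difference was 2.03 ± 0.34 with it (adjusted p = 0.000116, edgeR) and 2.37 without it (adjusted p = 3.62e-08). Without Nlrp3 the libraries held 178, 222 and 228 CPM in NLRP3 and 554, 604 and 801 CPM in APPPS1_NLRP3, a difference of 1.60 ± 0.35 (adjusted p = 0.00244). At 4 months Ccl6 was at 79.5, 87.6, 104 and 128 CPM in WT and 174, 201 and 239 CPM in APPPS1. Although those groups did not overlap, the difference of 1.05 ± 0.32 was not called (unadjusted p = 0.00201, adjusted p = 1). NLRP3 at 172, 172, 198 and 203 CPM and APPPS1_NLRP3 at 203, 237, 257 and 268 CPM met at their edges, with 0.37 ± 0.30 (adjusted p = 1).

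**Figure D3:**
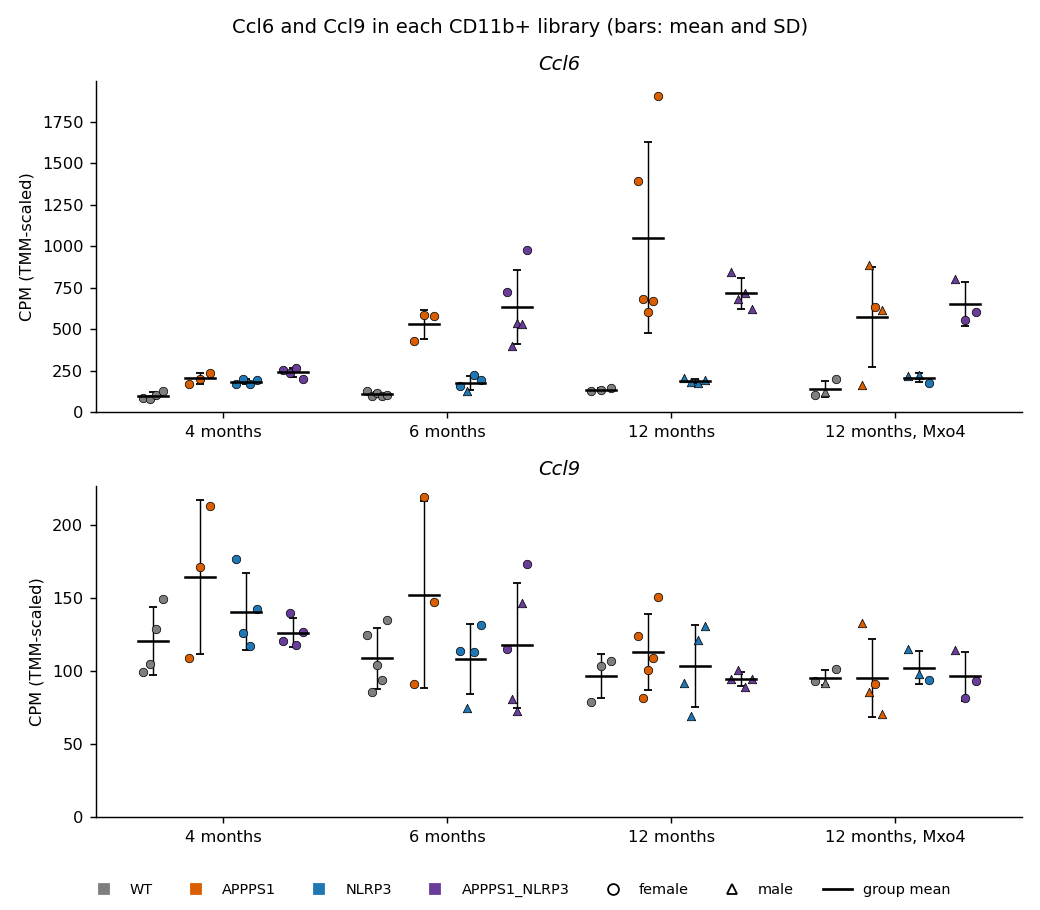
CPM of Ccl6 (top) and of its neighbour Ccl9 (bottom) in each of 61 libraries (points; circles female, triangles male), with group mean and SD. Ccl6 separates transgenic from other libraries from 6 months on, except the library labelled APPPS1_12m_Mxo4 replicate 56 at 164 CPM, while Ccl9 groups overlap.

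Loss of Nlrp3 without transgenes went with somewhat higher Ccl6 values in each set, none of them called alone. The differences in NLRP3 minus WT were 0.90 ± 0.30, 0.70 ± 0.28, 0.52 ± 0.33 and 0.51 ± 0.35 at 4, 6 and 12 months and in the Mxo4 set (edgeR adjusted p = 0.256, 0.361, 0.452 and 1). At 4, 6 and 12 months every NLRP3 library was above every WT library. The mean of the 4 differences, a comparison chosen after these values were seen, was 0.66 ± 0.16 (adjusted p = 0.00777), and Ccl6 was the only member called in it (1 of 8, 4.63% of all genes). The call was lost with the first title number in the fit (0.59, adjusted p = 0.0649) and within second title number 2 (0.75, adjusted p = 0.0535), where WT_12m_Mxo4 and NLRP3_12m have 1 library each. Sex and Nlrp3 loss cannot be told apart at 12 months, untagged, a set that enters the mean of the 4 differences. All 4-month libraries were female.

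Ccl9, only 9.245 kb from Ccl6 and read from the same strand, did not follow it. No comparison called Ccl9, and its group means ran from 94.8 to 164 CPM. In APPPS1 minus WT at 12 months its difference was 0.24 ± 0.24 (adjusted p = 0.515, edgeR), with 79.2, 104 and 107 CPM in WT and 81.7, 101, 109, 124 and 151 CPM in APPPS1, which overlap. The ratio of Ccl6 to Ccl9 counts therefore ran from 0.826 ± 0.0547 (SD, n = 4) in WT_4m to 8.88 ± 2.99 (SD, n = 5) in APPPS1_12m. Within groups Ccl6 and Ccl9 correlated at r = 0.28 (n = 61), against 0.96 for Ccl3 and Ccl4. The genes most like Ccl6 over the 16 group means were Milr1 (0.98), Cd52 (0.98) and the tetraspanin Cd9 (0.97). Within groups they were Cd9 (0.89), the lysosomal tetraspanin Cd63 (0.87) and Tyrobp (0.87), the adaptor through which Trem2 signals. The nearest to Ccl9 over group means was B3galt4 (0.87).

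The Ccr2 ligands Ccl2, Ccl7 and Ccl12, neighbours in the other block, had fewer calls. Ccl12 was called higher with transgenes at 6 months without Nlrp3 and at 12 months with Nlrp3. At 12 months it lay at 66.05, 66.1 and 81.4 CPM in WT and 98.97, 149.8, 159.9, 182 and 238 CPM in APPPS1, with no overlap and a difference of 1.22 ± 0.25 (adjusted p = 0.000202, edgeR). The highest of these, replicate 38, was the library with the most neutrophil and monocyte marker RNA, and without it the difference was 1.05 (adjusted p = 0.00118). Within second title number 1, against WT replicate 40 alone, the difference was 0.99 (adjusted p = 0.274), and within number 2 it was 1.37 (adjusted p = 0.00395). At 6 months Ccl12 was at 55.1, 59.9, 69.9 and 83.8 CPM in NLRP3 and 73.6, 86.6, 111, 139.8 and 152 CPM in APPPS1_NLRP3, which overlap. Its difference of 0.74 ± 0.22 (adjusted p = 0.0224) lost the call without each of 6 single libraries and within either second title number (0.999 and 0.51).

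Ccl2, the main monocyte attractant, was called lower with the transgenes in the Mxo4 set. There Ccl2 lay at 111, 118 and 165 CPM in WT and 64.01, 65.7, 79.6 and 85.2 CPM in APPPS1, without overlap. The difference was -0.84 ± 0.22 (adjusted p = 0.016, edgeR) and -0.91 without the library labelled replicate 56. It lost the call without replicate 58, 59 or 62 (highest adjusted p = 0.171). In the untagged set at 12 months Ccl2 differed by 0.43 ± 0.22 (adjusted p = 0.168). In APPPS1_NLRP3 minus APPPS1 at 12 months it was lower, at 75.3, 76.8, 80.1 and 87.3 CPM against 83.1, 97.2, 111, 163 and 179 CPM. Sex and Nlrp3 loss cannot be told apart in this set, so a sex term takes its estimate from other groups. The Ccl2 difference was -0.66 ± 0.20 (edgeR adjusted p = 0.0411) and -0.53 without APPPS1_12m replicate 41 (adjusted p = 0.137). With sex as a further term it was -0.54 (adjusted p = 0.286). Within the second title numbers it was -0.25 (adjusted p = 0.707) and -1.13 (adjusted p = 0.00555).

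**Figure D4:**
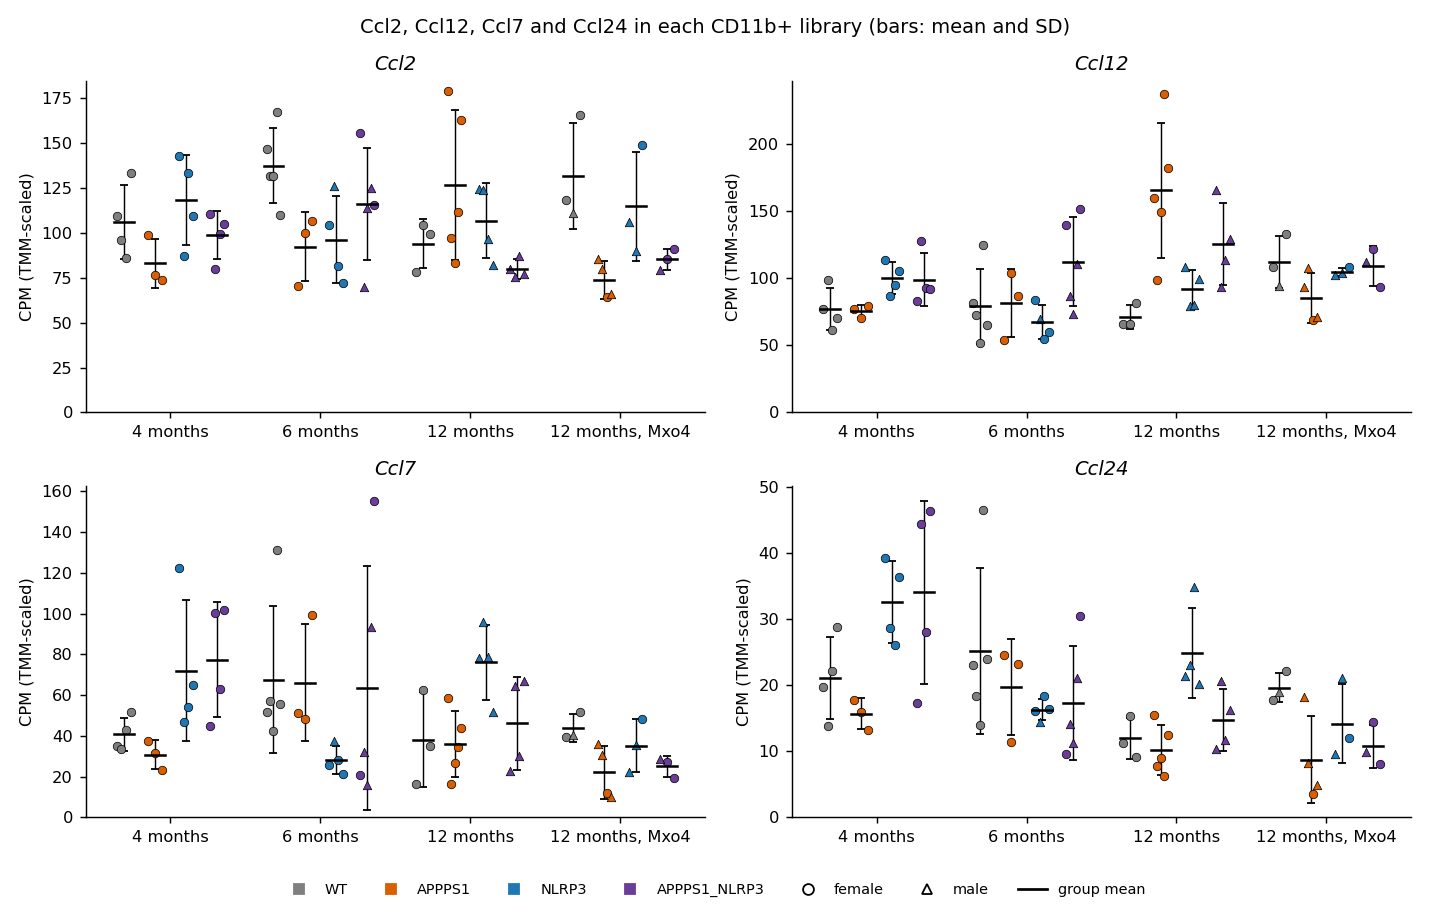
CPM of Ccl2, Ccl12, Ccl7 and Ccl24 in each of 61 libraries (points; circles female, triangles male), with group mean and SD. Ccl12 is highest in APPPS1 at 12 months, untagged, and Ccl7 and Ccl24 spread widely within groups, with WT_6m replicate 19 high in both.

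Ccl7, a monocyte attractant, and Ccl24, the eotaxin, spread widely within groups. The SD of log2 CPM within groups was 0.66 for Ccl7 and 0.49 for Ccl24, the largest of the 8. The other 6 had 0.29 to 0.41. No comparison called Ccl7, and no comparison of genotype called Ccl24. For Ccl7 the largest genotype difference was 1.33 ± 0.56 in APPPS1_NLRP3 minus APPPS1 at 4 months (adjusted p = 0.782, edgeR). In that comparison Ccl24 differed by 1.12 ± 0.41 (adjusted p = 0.598). In APPPS1 minus WT of the Mxo4 set Ccl24 lay at 17.8, 19.03 and 22.1 CPM in WT and 3.56, 4.92, 8.30 and 18.2 CPM in APPPS1, a difference of -1.17 ± 0.41 (adjusted p = 0.092). The highest of the 4 APPPS1 values was the library labelled replicate 56, and without it Ccl24 was called lower, at -1.87 (adjusted p = 0.00136). The 3 others all lay below the lowest WT value. The sum of border-associated macrophage markers in them was 176 to 278 CPM against 511 CPM in replicate 56 and 470.2 to 578 CPM in WT.

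Both genes varied with markers of border-associated macrophages, the macrophages of meninges and vessels that CD11b selection also takes. The summed CPM of 9 such markers (among them Mrc1, Cd163, Lyve1 and Pf4, none at 0 in any library) ran from 176 to 1258 over 61 libraries. With each group's mean subtracted, log2 Ccl7 correlated with the log2 sum at r = 0.77 and Ccl24 at r = 0.75 (n = 61). Ccl3 and Ccl4 ran the other way at r = -0.57 and -0.57, Ccl6 was at -0.21, and Ccl2, Ccl9 and Ccl12 were at 0.09, 0.25 and 0.26. Ccl7 and Ccl24, on different chromosomes, correlated within groups at r = 0.76, whereas Ccl7 and its neighbour Ccl2 did so at r = 0.40. The genes most like Ccl24 over the 16 group means were the markers Pf4 (0.94) and Mrc1 (0.94) and the ectoenzyme gene Cd38 (0.91). Within groups Cbr2 (0.81), Pf4 (0.79) and Cd209f (0.77) were most like it, and Pf4 (0.82), the scavenger receptor gene Msr1 (0.78) and Cbr2 (0.74) most like Ccl7. Other marker sums varied with these genes too. Neuron markers correlated within groups at r = -0.58 with Ccl3, -0.62 with Ccl4, 0.53 with Ccl7 and 0.56 with Ccl24. Oligodendrocyte markers were at -0.43 with both Ccl3 and Ccl4, and at 0.29 and 0.28 with Ccl7 and Ccl24. Ccl7 and Ccl24 were at -0.47 and -0.41 with endothelial markers, and at -0.48 and -0.41 with the dissociation-response sum. These libraries share depth and preparation, and the part of other cells in the differences was not tested.

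**Figure D5:**
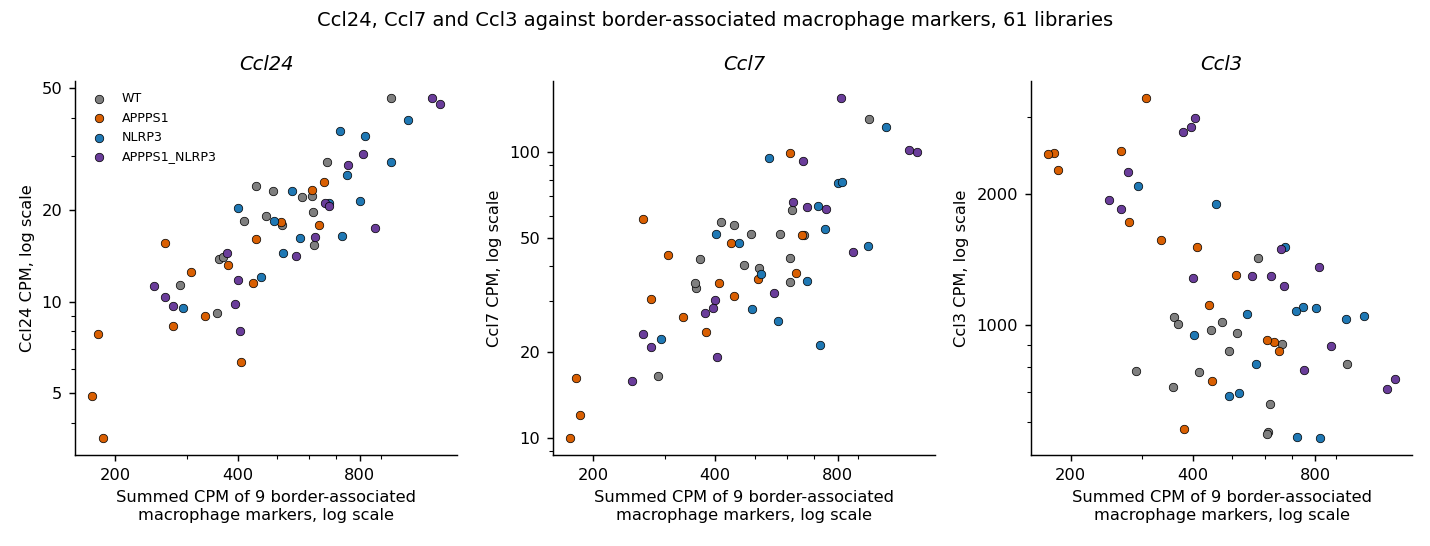
CPM of Ccl24, Ccl7 and Ccl3 (y axes, log scale) against the summed CPM of 9 border-associated macrophage markers (x axis, log scale), 1 point per library (n = 61), coloured by genotype. Libraries with a higher marker sum tend to have more Ccl24 and Ccl7 and less Ccl3.

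Age was compared within each genotype. Without transgenes no member was called from 4 to 6 months (WT 0.0755% and NLRP3 0.78% of all genes called) or from 4 to 12 months (0.0252% and 0.418%) by edgeR. Of these 32 tests, 5 had an unadjusted p under 0.05, all 5 in NLRP3 from 4 to 6 months, and DESeq2 called 0. In APPPS1 from 4 to 6 months 0 of 8 were called (0.242%), with 1 under 0.05 unadjusted, Ccl6 at 1.31 ± 0.35 (adjusted p = 0.0753), which DESeq2 called. In APPPS1_NLRP3 over the same months 3 of 8 rose (5.65%): Ccl3 by 1.08 ± 0.21, Ccl4 by 1.04 ± 0.21 and Ccl6 by 1.39 ± 0.29. From 4 to 12 months 5 of 8 rose in APPPS1 (22.3%): Ccl6 by 2.33 ± 0.34, Ccl4 by 1.61 ± 0.24, Ccl3 by 1.59 ± 0.23, Ccl12 by 1.13 ± 0.24 and Ccl2 by 0.59 ± 0.22. The Ccl2 call (adjusted p = 0.0441) was lost without APPPS1_12m replicate 35 or 41 or APPPS1_4m replicate 3 or 6 (highest adjusted p = 0.182). In APPPS1_NLRP3 3 of 8 rose and 1 fell (12.1%): Ccl6 by 1.57 ± 0.30, Ccl3 by 0.84 ± 0.21 and Ccl4 by 0.72 ± 0.22, with Ccl24 at -1.21 ± 0.38 (adjusted p = 0.0262). The Ccl24 call was lost without each of 4 single libraries, and that of Ccl4 likewise. The border-associated macrophage sum ran over 749 to 1258 CPM at 4 months and over 266 to 671 CPM at 12 months in APPPS1_NLRP3, with 4 of 9 markers called lower, and its part in the fall of Ccl24 was not tested. All 4-month libraries were female and all APPPS1_NLRP3_12m libraries male.

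Libraries with the tag Mxo4 were compared with untagged ones at 12 months. In WT no member was called (0.166% of all genes by edgeR), with 3 of 8 under 0.05 unadjusted and 0 called by DESeq2. Ccl3 and Ccl4 were higher with the tag in NLRP3 (2 of 8 called, 6.62%) and in APPPS1_NLRP3 (2 of 8, 0.916%). Ccl3 went from 549, 949, 1061 and 1095 to 1513, 1891 and 2082 CPM in NLRP3 and from 1229, 1284, 1297 and 1849.8 to 2774, 2851 and 2983 CPM in APPPS1_NLRP3, without overlap. Its differences were 0.97 ± 0.23 (adjusted p = 0.0102) and 0.98 ± 0.23 (adjusted p = 0.0273), and those of Ccl4 0.77 ± 0.24 and 0.98 ± 0.24 (adjusted p = 0.0409 and 0.0322). In APPPS1 2 of 8 were lower with the tag (6.38%), Ccl12 at -0.95 ± 0.22 (adjusted p = 0.00985) and Ccl2 at -0.77 ± 0.20 (adjusted p = 0.0209). Without the library labelled replicate 56 they were -0.99 and -0.84, both called. Ccl2 was not called without APPPS1_12m replicate 35 or 41, or Mxo4 replicate 58 or 59, and neither was called with sex as a further term (adjusted p = 0.0684 and 0.1). Ccl3 and Ccl4 lost their calls in APPPS1_NLRP3 with sex as a further term (adjusted p = 0.09 and 0.0772). Leaving out single libraries ended these calls in 2 and 5 of 7 leave-outs in NLRP3, and in 5 and 6 of 7 in APPPS1_NLRP3, for Ccl3 and Ccl4. The dissociation-response sum was higher with the tag in WT (26239.7 to 28697 CPM), NLRP3 (30945 to 41297) and APPPS1_NLRP3 (22987 to 27186), with no overlap with the untagged 20076 to 20106, 11916 to 15633 and 7922 to 11845 CPM, and in APPPS1 it overlapped (16596 to 32340.5 against 14492 to 21056). Its part in the Ccl3 and Ccl4 differences was not tested.

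Other genes of the family gave few calls. Of 13 further CC ligands 6 passed the filter, and none was called in any of the 16 comparisons of genotype within a set. Their medians were 0.396 (Ccl17) to 11.6 (Ccl8) CPM per kb of exon, below each of the 8 genes described here. Of 10 CC receptors 8 passed the filter, and none was called in those 16 comparisons. Ccr1, Ccr2 and Ccr3 had medians of 8.61, 2.32 and 0.357 CPM per kb. Of 4 atypical receptors, which bind ligands without G protein signalling, 3 passed the filter. Ccrl2, which presents chemerin, was called in 6 of the 16 genotype comparisons. It was 1.63 ± 0.27 in APPPS1_NLRP3 minus NLRP3 at 6 months and 2.08 ± 0.30 in APPPS1 minus WT at 12 months, beside 0.48 in APPPS1 minus WT at 6 months (adjusted p = 0.367). At 12 months Ccrl2 lay at 191, 241 and 244 CPM in WT and 591, 788, 859.7, 929 and 1532 CPM in APPPS1, and APPPS1_NLRP3 minus APPPS1 was -0.85 ± 0.26 (adjusted p = 0.0412). Its difference of Nlrp3 loss in APPPS1, 12 minus 6 months, chosen after the values were seen, was -1.82 ± 0.38 (edgeR adjusted p = 0.0216). The 1532 CPM of Ccrl2 was in APPPS1_12m replicate 41, a shallow library of 6187249 counts. Alternatives and leave-outs were run only for the 8 members, so the stability of the Ccrl2 calls was not tested. Sex and Nlrp3 loss cannot be told apart at 12 months, untagged. Ackr1, called higher in APPPS1 and lower in APPPS1_NLRP3 at 12 months, had a median of 0.048 CPM and at most 13.97 CPM in 1 library.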

How the data were processed

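RNA was taken from CD11b+ cells of mice with the miRNA easy kit, and libraries were made from 10 ng with SMART-Seq v4 in 2 batches and sequenced as 125 bp read pairs, per the labels' protocols. The deposited matrix holds raw read counts per gene, made by the authors with Trimmomatic, TopHat and HTSeq on mm10, per the submitters' processing notes. Versions and settings are not given in the sources used here. The kit keeps no strand and has no molecular identifiers. All 62 libraries were fitted together with edgeR 4.0.16 (R 4.3.3): TMM scaling, genes kept by filterByExpr (minimum count 10, total 15), a term per group and 1 for the second number in the titles, robust quasi-likelihood dispersions, and Benjamini-Hochberg adjustment over 19865 genes. Standard errors were derived from the F statistic (difference over its root). Levels are CPM on TMM-scaled totals over the 61 libraries above 100000 counts. Correlations use log2(CPM + 1). The procedure was tested on simulated data. DESeq2 1.42.0, RLE factors, no filter, other terms (the first title number, sex), each second title number alone and leaving out each library were alternatives. The labels do not say what the title numbers stand for. Sex was read from Xist and 4 Y-linked genes. The 8 genes and the gene lists were chosen with earlier results of these data known. Listed genes of the family were named where called, and likeness names the 3 genes with the highest r.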

Additional observations from a re-analysis of the deposited data

Results flagged for a closer look

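In APPPS1_NLRP3_12m, Ccl3 was at 1849.85 CPM in replicate 43, far from the other 3 libraries of its group at 1229 to 1297 CPM. In WT_6m, Ccl7 was at 131.24 CPM in replicate 19, far from the other 4 at 42.4 to 57.01 CPM. These were 2 of 80 groups of values examined for a library far from the rest, and chance alone picks about 1 in 20.

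The effect of Nlrp3 loss in APPPS1 mice differed between 12 months, untagged, and 6 months, by -1.52 for Ccl3 and -1.79 for Ccl4 on the log2 scale. The interaction of transgenes and Nlrp3 loss differed between these ages by -2.25 for Ccl3 and -2.52 for Ccl4. The transgene effect with intact Nlrp3 differed between them by 1.59 for Ccl3 and 1.55 for Ccl4. Each was tested as a contrast of the fit across all genes (edgeR, adjusted p under 0.05), in comparisons chosen after the values were seen.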

How the results depend on the processing

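No called log2 difference changed sign under any alternative. Counts of the 8 members called in the comparisons of genotype, age and tag are given here where they moved by over 1.5 times, and the cause was not tested. DESeq2 called 1 in APPPS1 from 4 to 6 months (0 by edgeR), 2 in APPPS1_NLRP3 minus APPPS1 at 6 months (1), 2 in APPPS1_NLRP3 minus NLRP3 at 12 months and 2 in its Mxo4 set (1 each), and in the interaction 1 at 6 months and 2 at 12 months (0 each). Adding the first title number to the fit gave 2 in APPPS1_NLRP3 from 4 to 12 months (4), 1 in APPPS1 minus WT of the Mxo4 set (4), 1 and 0 in APPPS1_NLRP3 minus APPPS1 at 12 and 6 months (3 and 1), and for the tag 1 in APPPS1, 0 in APPPS1_NLRP3 and 1 in NLRP3 (2 each). Without the filter on low counts APPPS1_NLRP3 minus APPPS1 had 1 at 12 months and 0 at 6 months, and the tag had 0 in APPPS1_NLRP3 and 1 in NLRP3. With sex as a further term APPPS1_NLRP3 minus APPPS1 had 0 at 12 and 6 months, and the tag had 0 in APPPS1 and APPPS1_NLRP3. For APPPS1_NLRP3 minus APPPS1 at 12 months, untagged, the sex term is estimated from other groups and cannot separate sex from Nlrp3 loss. RLE factors gave 0 in APPPS1_NLRP3 minus APPPS1 at 6 months and 1 for the tag in NLRP3, and leaving out libraries under 100000 counts gave 0 in the former. Second title number 1 alone gave 1 in APPPS1_NLRP3 from 4 to 12 months, 2 in APPPS1 minus WT at 12 months, 0 in APPPS1_NLRP3 minus APPPS1 at 12 and 6 months, and 0 for the tag in APPPS1 and NLRP3. There WT_12m and NLRP3_12m_Mxo4 have 1 library each, and APPPS1_6m has 1 of usable depth. Number 2 alone gave 0 in APPPS1 minus WT of the Mxo4 set, 3 in APPPS1_NLRP3 minus APPPS1 of that set (0), 0 in that pair at 6 months, 1 in the interaction at 12 months, and for the tag 4 in APPPS1 and 0 in NLRP3. In number 2 the arm of APPPS1_12m_Mxo4 is the library labelled replicate 56 alone, whose Cst7 is unlike its group. That of WT_12m_Mxo4 is replicate 60 alone and that of NLRP3_12m replicate 42 alone. These counts therefore rest on arms of 1 library and say nothing on stability. The exception is APPPS1_NLRP3 minus APPPS1 at 6 months, where both arms hold several libraries. With each library left out in turn the counts ran from 2 to 4 in APPPS1_NLRP3 from 4 to 12 months, 1 to 5 in APPPS1 minus WT of the Mxo4 set, 0 to 3 and 0 to 2 in APPPS1_NLRP3 minus APPPS1 at 12 and 6 months, 0 to 2 in the interaction at 12 months, and for the tag 1 to 3 in APPPS1, 0 to 2 in APPPS1_NLRP3 and 0 to 2 in NLRP3. The 9 calls of Ccl6 held in every leave-out, as did 5 of 9 for Ccl3, 4 of 10 for Ccl4, 3 of 4 for Ccl12, 0 of 4 for Ccl2 and 0 of 1 for Ccl24. Of the comparisons added after the values were seen, the transgene difference at 12 minus 6 months (2 called) had 4 by DESeq2, 0 with the first title number, 0 without the filter, 0 within second title number 1 and 1 with that number left out. Nlrp3 loss in APPPS1 and the interaction, 12 minus 6 months (2 each), had 0 within number 1. The mean of NLRP3 minus WT (1) had 0 with the first title number and 0 within number 2. With each library left out these ran from 0 to 4, 0 to 3 and 2 to 3 for the first 3 of them. No paired analysis was possible because the replicate numbers run from 1 to 62 without repeats. The first and second title numbers recur across groups, the labels do not say what they mark, and they were used as terms: adding the first ended 17 calls and gained 0. Groups of 3 to 5 libraries limit the precision, and NLRP3_12m replicate 45 and APPPS1_12m replicate 41 are the shallowest used for levels.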

Other observations

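Ccr6, a receptor of Ccl20, chosen after its values were seen, divided the libraries in an uneven way. All 31 libraries without Nlrp3 held 135 to 283 CPM of Ccr6. Of 30 libraries with Nlrp3, 20 held 0.903 to 3.89 CPM and 10 held 69.6 to 153 CPM, and 7 of the 8 groups with Nlrp3 held both kinds. NLRP3 minus WT, as the mean of the 4 sets, was 2.11 ± 0.68 for Ccr6 (adjusted p = 0.0629, edgeR) and was not called. Ccl8, a further CC ligand, was called higher in that mean, at 0.997 ± 0.28 (adjusted p = 0.0249).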
